A study of Capra hircus with 6 samples.

Results

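The genes described here are those of macrophages and other myeloid cells, measured in whole-ovary RNA of 6 goats (Capra hircus). They were chosen by name as a list of 39 genes and matched through the goat gene symbols; 35 of them were found among the 17504 genes measured, and CD163, CYBB, CYBA and STAB1 were not matched and are not analysed here. The animals were 3 Jintang black goats, a breed that the labels describe as prolific (Jintang 1, 2 and 3), and 3 Tibetan goats, described as non-prolific (Tibetan 1, 2 and 3). All 6 ovaries came from the follicular phase, when follicles grow towards ovulation, and the labels give no age, treatment or flock. The study set the ovarian transcriptomes of the breeds side by side. The unit is FPKM, a fragment count divided by transcript length and by the mapped fragments of the library. It puts genes and goats on a common scale, but each level stays relative to the rest of its library.

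Macrophages are resident phagocytes that depend on colony-stimulating factor 1 and its receptor CSF1R, and take up dying cells, lipoproteins and matrix through scavenger receptors. In the ovary they are found around follicles undergoing atresia and in the regressing corpus luteum, where they remove dying cells. Many of their surface receptors have no signalling domain of their own and signal through the adaptors TYROBP (DAP12) and FCER1G. Circulating monocytes and neutrophils share part of this gene set, among them the calgranulins S100A8 and S100A9 and the subunits of the phagocyte NADPH oxidase.

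Library sums of FPKM lay between 602511 and 669309 in Jintang ovaries and between 602255 and 682801 in Tibetan ovaries. The number of fragments behind a value is unknown. Relative depth was estimated as the inverse of the commonest ratio of low values to those of Tibetan 1. It ranged from 0.927 to 1.028, with Tibetan 1 taken as 1. As FPKM is already divided by the mapped fragments of the library, this does not show that depth was equal. A gene was tested where 3 or more libraries reached 1 FPKM, which left 13067 genes and 30 of the 35 members. No tested member passed through 1 breed alone, in the sense of reaching 1 FPKM in exactly the 3 libraries of that breed. A fold change is the Jintang mean less the Tibetan mean of log2(FPKM + 1), a scale on which changes of low genes come out too small; each breed had n = 3 goats.

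The myeloid genes were highest in Jintang 1 and lowest in Tibetan 1, with the other 4 ovaries in between. Jintang 1 held the highest value of 22 of the 30 tested members (73.3%), where it held the highest value of 12.6% of all genes tested. Tibetan 1 held the lowest value of 22 of the 30 (73.3%), against 20.7% of all genes tested. In 18 of the 30 members Jintang 1 was at least 2-fold above every other library, a lead found in 2.91% of all genes tested. The mean of the tested members was 4.96, 3.11 and 3.55 on the log2(FPKM + 1) scale in Jintang 1, 2 and 3, against 1.85, 3.35 and 3.00 in Tibetan 1, 2 and 3. The breeds therefore overlapped, with Tibetan 2 between Jintang 3 and Jintang 2. The summed level of the 35 measured members was 1989, 398 and 705 FPKM in Jintang 1, 2 and 3, against 149, 633 and 561 FPKM in Tibetan 1, 2 and 3. In bulk tissue, fewer cells of a type and less RNA per cell cannot be told apart.

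**Figure D1:**
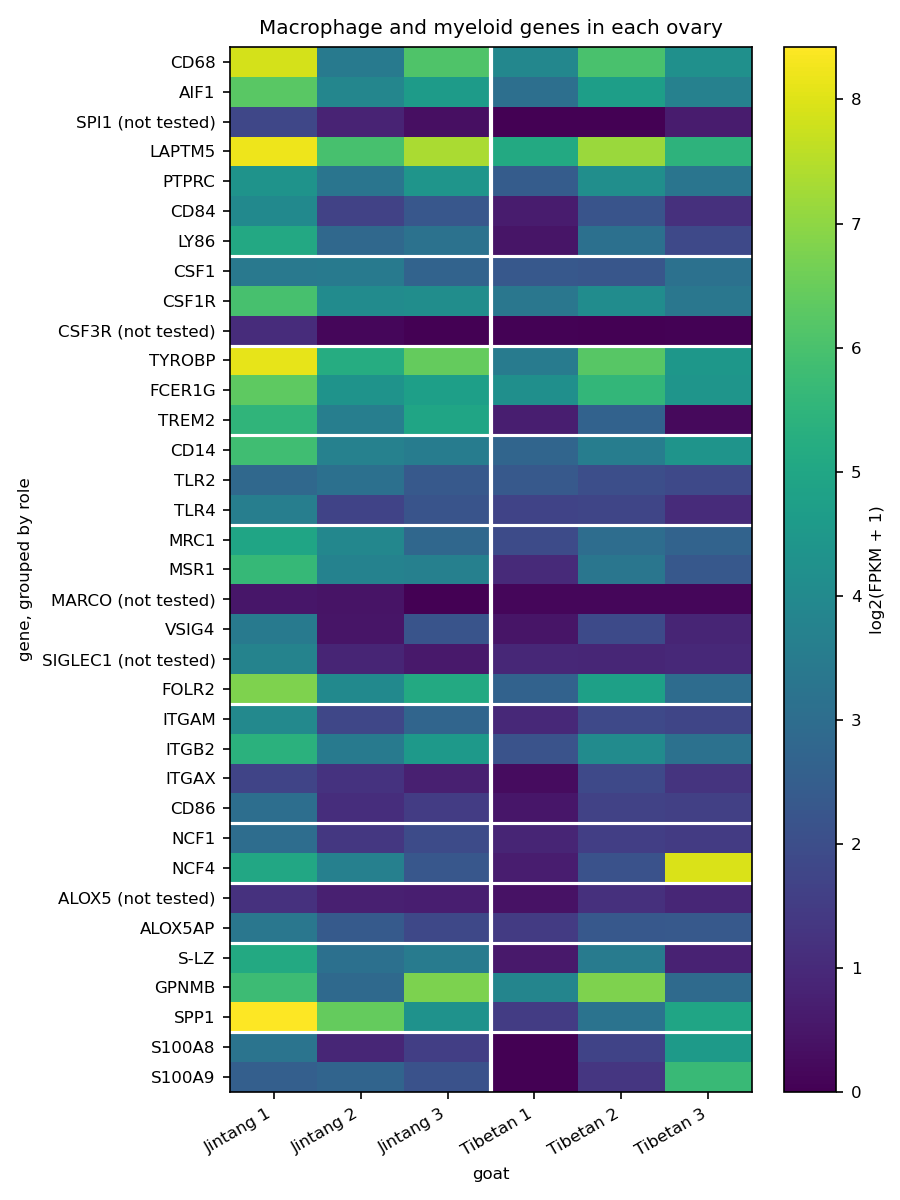
Level of the 35 measured genes (rows, grouped by role, with white lines between the roles) in the ovary of each goat (columns, Jintang left of the white line), as log2(FPKM + 1) in colour. Most rows are brightest in Jintang 1 and darkest in Tibetan 1, whereas NCF4, S100A8 and S100A9 are brightest in Tibetan 3 and GPNMB is bright in Jintang 3 and Tibetan 2.

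Between the breeds, 29 of the 30 tested members had a positive log2 fold change and 1 (S100A8) a negative one, where 41.0% of all genes tested were positive. The median over the tested members was 1.04, against -0.10 over all 13067 genes. With median-ratio scaling the median over all genes moved from -0.10 to 0.02 and that of the members to 1.15, and 51.9% of all genes were then positive. Of the 30 members, 16 had a log2 fold change of at least 1, as did 4.48% of all genes tested, and none was at -1 or below, where 2.59% of all genes were. No member passed the test: at a limma adjusted p under 0.05, 0 of 30 members and 0 of 13067 genes (0.0%) were called, and the members' adjusted p ran from 0.743 to 0.992. At an unadjusted p under 0.05 there were 8 members, all higher in Jintang ovaries (TREM2, MSR1, SPP1, S-LZ, MRC1, LY86, FOLR2 and ITGAM), where 2.82% of all genes tested were higher and 3.35% lower at that level. This count was 1 without Jintang 1, 2 without Tibetan 1 and 17 without Jintang 2. The share of all genes at that level, in either direction, was 2.69% without Jintang 1, 2.57% without Tibetan 1 and 4.09% without Jintang 2, and 6.17% over all goats. The median of the members was 0.51 without Jintang 1. Every Jintang value exceeded every Tibetan value in 3 members (TREM2, MSR1 and TLR2), as they did in 3.2% of all genes tested, and in no member did all lie below, as they did in 6.7% of all genes.

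**Figure D2:**
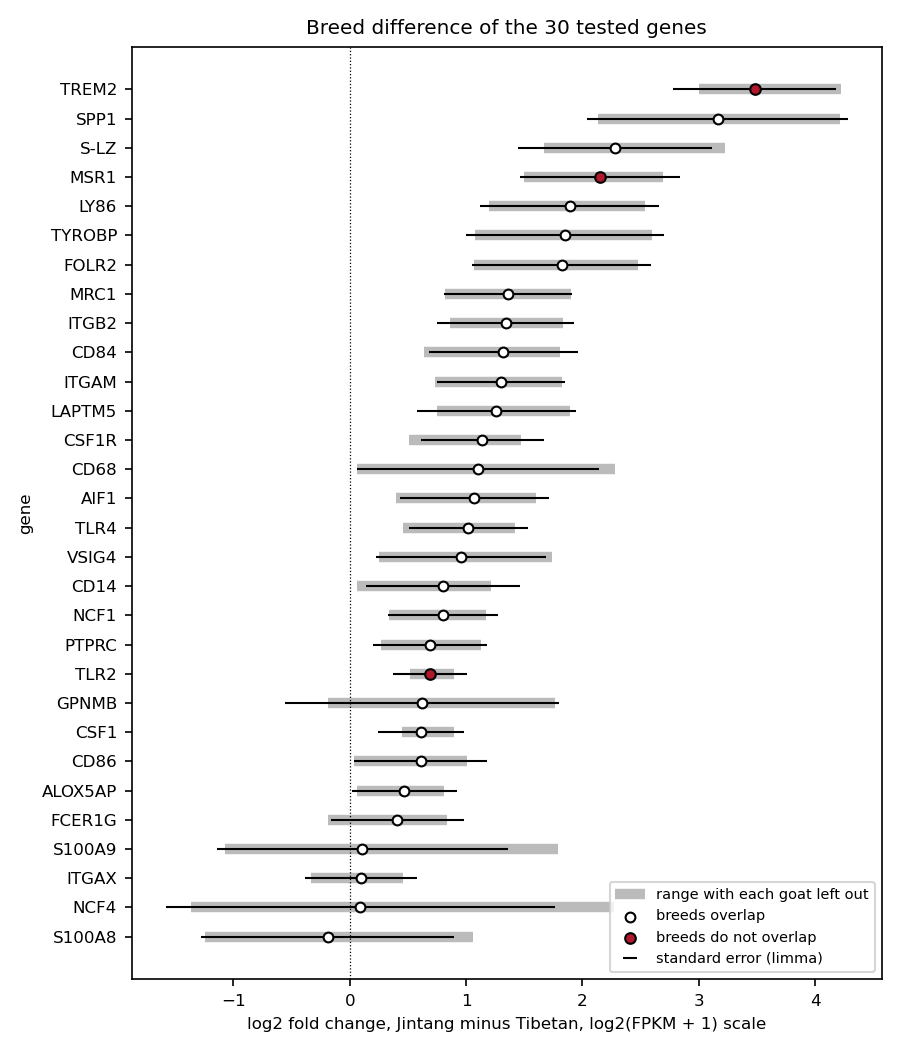
Log2 fold change of each tested gene (rows), Jintang minus Tibetan, in log2(FPKM + 1) units; points are the estimates over 3 goats per breed, black lines the standard error and grey bars the range of estimates when each goat was left out in turn. TREM2 (3.48) and SPP1 (3.16) lie farthest to the right, and the grey bars of 6 genes (S100A8, NCF4, ITGAX, S100A9, FCER1G and GPNMB) cross 0.

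Among the genes of leukocyte and macrophage identity, the lysosomal membrane proteins LAPTM5 and CD68 had the highest levels. LAPTM5 was at 292, 61.3 and 164 FPKM in Jintang 1, 2 and 3, against 33.6, 142 and 42.8 FPKM in Tibetan 1, 2 and 3. CD68, a glycoprotein of macrophage lysosomes, was at 233, 9.83 and 67.3 FPKM in Jintang ovaries, against 14.0, 62.8 and 17.5 FPKM in Tibetan ovaries. Its lowest value of all 6 was thus in Jintang 2 and its highest in Jintang 1, and its log2 fold change (1.10, SE 1.04, limma adjusted p = 0.806) ran from 0.06 without Jintang 1 to 2.28 without Jintang 2. AIF1, a calcium-binding protein of macrophages also known as IBA1, was at 75.2, 13.5 and 23.4 FPKM in Jintang ovaries and at 7.43, 25.4 and 12.02 FPKM in Tibetan ovaries. PTPRC, which encodes the pan-leukocyte phosphatase CD45, varied less, at 19.1, 8.61 and 20.0 FPKM in Jintang ovaries against 4.49, 16.9 and 8.72 FPKM in Tibetan ovaries. Unlike most members it was highest in Jintang 3, by a ratio of 1.05 over Jintang 1. The ratio of CD68 to PTPRC was 12.2 in Jintang 1, and elsewhere it ran from 1.14 to 3.71.

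LY86, also known as MD-1, which pairs with a Toll-like receptor homologue on leukocytes, was at 32.6, 6.2 and 8.07 FPKM in Jintang ovaries and at 0.38, 7.66 and 2.62 FPKM in Tibetan ovaries. Jintang 3 and Tibetan 2 nearly coincided, and Tibetan 1 was the lowest (limma log2 fold change 1.89, SE 0.77, adjusted p = 0.743). CD84, an adhesion receptor of the SLAM family, was at 15.1, 2.19 and 3.92 FPKM in Jintang ovaries, against 0.57, 3.59 and 1.27 FPKM in Tibetan ovaries. SPI1, which encodes PU.1, the transcription factor that myeloid development requires, was low in every ovary. It was at 2.44, 0.77 and 0.28 FPKM in Jintang ovaries, was listed at 0 in Tibetan 1 and 2, and was at 0.55 FPKM in Tibetan 3, so it was not tested. The labelled tissue was checked against ovarian markers: NR5A1, a nuclear receptor of steroidogenic cells, was between 22.9 and 32.7 FPKM in Jintang ovaries and between 19.3 and 62.6 FPKM in Tibetan ovaries.

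Of the colony-stimulating factor genes, CSF1R, the receptor on which macrophages depend, was at 62.1, 15.8 and 16.4 FPKM in Jintang ovaries, against 9.08, 15.98 and 9.04 FPKM in Tibetan ovaries. Jintang 1 stood 3.79-fold above the next ovary, whereas Jintang 2, Jintang 3 and Tibetan 2 lay close together (limma log2 fold change 1.14, SE 0.53, adjusted p = 0.743). Its ligand CSF1 spanned a smaller range, at 9.48, 10.2 and 5.36 FPKM in Jintang ovaries and at 3.99, 3.75 and 7.84 FPKM in Tibetan ovaries. The ratio of receptor to ligand was 6.54, 1.55 and 3.06 in Jintang 1, 2 and 3, against 2.28, 4.26 and 1.15 in Tibetan 1, 2 and 3, and did not separate the breeds. IL34, a further ligand of CSF1R, was lower in all Jintang ovaries, at 1.38, 1.31 and 2.34 FPKM, than in Tibetan ovaries, at 3.34, 2.44 and 3.34 FPKM (log2 fold change -0.61, limma adjusted p = 0.743). Of 6 further genes of this pathway 4 were measured and 3 tested, with 2 positive and 1 negative fold changes. IL34 was the only 1 of the 3 tested without overlap, where 6.7% of all genes tested had every Jintang value below. Receptors of the granulocyte-macrophage factor were highest in Jintang 1. CSF2RB, their shared signalling chain, was at 48.2, 6.55 and 3.55 FPKM in Jintang ovaries against 1.39, 3.01 and 4.77 FPKM in Tibetan ovaries, and the ligand-binding chain CSF2RA reached 19.3 FPKM in Jintang 1 and did not exceed 7.03 FPKM in another ovary. IL3RA, the interleukin-3 receptor chain that pairs with CSF2RB, was under the filter and lower in all Jintang ovaries, at 0.59, 0.70 and 0.70 FPKM, than in Tibetan ovaries, at 1.08, 0.98 and 1.28 FPKM. With no filter on low values, 6.09% of 17411 genes had every Jintang value below. CSF3R, the receptor of the granulocyte factor, did not reach the filter, with 1.10 FPKM in Jintang 1 and no other value above 0.11 FPKM.

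The adaptor TYROBP was the member with the second highest mean, after LAPTM5, and the myeloid receptor TREM2, which signals through it, had the largest fold change. TYROBP was at 278, 35.9 and 85.5 FPKM in Jintang ovaries, against 10.4, 74.1 and 21.2 FPKM in Tibetan ovaries (limma log2 fold change 1.85, SE 0.85, adjusted p = 0.743). TREM2, which binds lipids and lipoproteins, was at 44.6, 11.1 and 29.9 FPKM in Jintang ovaries, against 0.64, 5.34 and 0.17 FPKM in Tibetan ovaries. Every Jintang value exceeded every Tibetan value, and the nearest pair across the breeds was Jintang 2 and Tibetan 2. The log2 fold change was 3.48 (SE 0.70, limma adjusted p = 0.743) and ran from 3.00 without Tibetan 3 to 4.22 without Tibetan 2. FCER1G, the gamma chain of Fc receptors, was at 80.4, 19.0 and 25.7 FPKM in Jintang ovaries and at 17.4, 46.7 and 20.0 FPKM in Tibetan ovaries, with overlap (limma log2 fold change 0.41, SE 0.57, adjusted p = 0.870).

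The balance of the 2 adaptors was described by the ratio of their FPKM, a measure chosen after the values were seen and given without a test. TYROBP over FCER1G was 3.45, 1.89 and 3.32 in Jintang 1, 2 and 3, against 0.597, 1.59 and 1.06 in Tibetan 1, 2 and 3, so that the breeds did not overlap. TREM2 over TYROBP was 0.161, 0.308 and 0.350 in Jintang ovaries and 0.0616, 0.0720 and 0.00803 in Tibetan ovaries, again without overlap. TREM2 by itself was already without overlap. Of the further ratios formed, FOLR2 over CD68 also separated the breeds, at 0.474, 1.506 and 0.502 in Jintang ovaries against 0.379, 0.426 and 0.397 in Tibetan ovaries. The remaining ratios overlapped, and no share over other gene pairs was counted. Further genes of this signalling route mostly had positive fold changes without a call. Of 16 listed immunoreceptor signalling genes 14 were tested, 12 were positive and 2 negative (median log2 fold change 0.69), and none had an unadjusted p under 0.05. VAV1, a signalling protein of blood cells, was at 14.2, 3.77 and 5.30 FPKM in Jintang ovaries against 1.77, 4.15 and 2.92 FPKM in Tibetan ovaries. The kinase BTK had 9.11, 2.20 and 2.45 FPKM in Jintang ovaries against 0.49, 2.18 and 1.62 FPKM in Tibetan ovaries. The phosphatase INPP5D had 6.53, 3.05 and 3.54 FPKM in Jintang ovaries against 2.02, 2.89 and 1.47 FPKM in Tibetan ovaries. In both genes the breeds did not overlap, but Jintang 2 and Tibetan 2 were nearly equal. They were the only 2 of the 14 tested without overlap, where 3.2% of all genes tested had every Jintang value above.

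**Figure D3:**
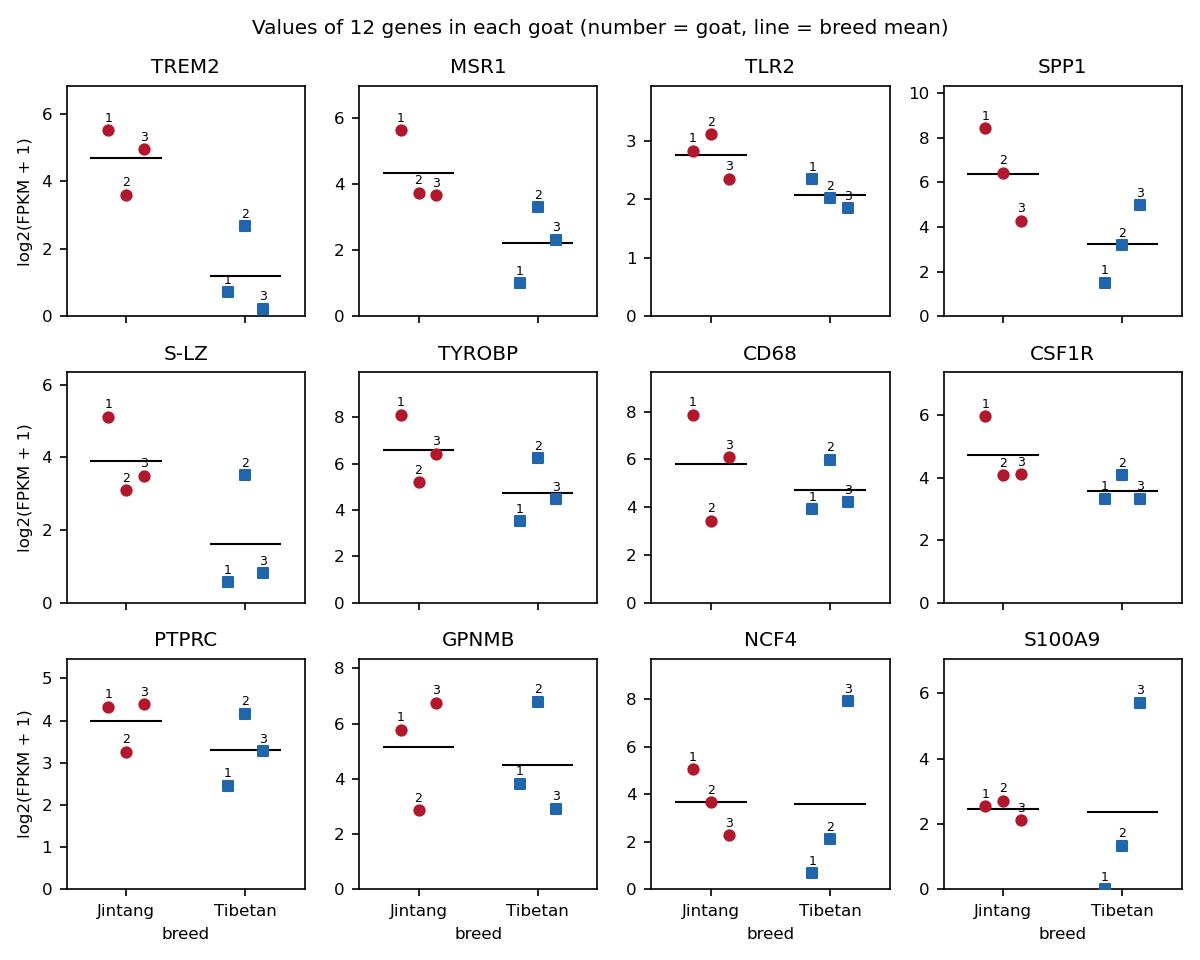
Level of 12 genes in each goat as log2(FPKM + 1), with Jintang goats as red circles, Tibetan goats as blue squares, the number of the goat beside each point and the breed mean as a line. The breeds are apart for TREM2, MSR1 and TLR2; the high Tibetan point for NCF4 and S100A9 is Tibetan 3, and that for GPNMB is Tibetan 2.

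Receptors for microbial products were low to moderate. CD14, the co-receptor for lipopolysaccharide, was at 56.1, 12.03 and 10.6 FPKM in Jintang ovaries and at 5.72, 10.8 and 19.7 FPKM in Tibetan ovaries, with Jintang 1 2.84-fold above the next ovary, Tibetan 3. TLR4, the receptor that CD14 serves, was at 11.3, 2.25 and 3.58 FPKM in Jintang ovaries against 2.21, 2.39 and 1.03 FPKM in Tibetan ovaries. TLR2, which recognises bacterial lipoproteins, was at 6.13, 7.67 and 4.11 FPKM in Jintang ovaries, against 4.10, 3.07 and 2.60 FPKM in Tibetan ovaries. Here the breeds did not overlap, but Jintang 3 and Tibetan 1 were nearly equal, and TLR2 was highest in Jintang 2 rather than Jintang 1 (limma log2 fold change 0.69, SE 0.32, adjusted p = 0.743). Of 16 further Toll-like receptor genes 11 were tested, 8 positive and 3 negative, with a median of 0.16 and no unadjusted p under 0.05. TLR7 was highest in Jintang 1 (5.54 FPKM, with no other value above 1.73 FPKM), whereas the common adaptor MYD88 was lower in all Jintang ovaries, at 21.4, 18.5 and 17.1 FPKM, than in Tibetan ovaries, at 25.0, 23.0 and 24.7 FPKM (log2 fold change -0.34, limma adjusted p = 0.758). MYD88 was the only 1 of the 11 tested without overlap, where 6.7% of all genes tested had every Jintang value below.

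Scavenger and endocytic receptors showed the Jintang 1 pattern throughout. The 4 tested genes of this class (MSR1, MRC1, FOLR2 and VSIG4) were all highest in Jintang 1. MSR1, the class A scavenger receptor for modified lipoproteins, was at 49.2, 12.4 and 11.8 FPKM in Jintang ovaries, against 1.01, 8.86 and 3.99 FPKM in Tibetan ovaries, without overlap (limma log2 fold change 2.15, SE 0.69, adjusted p = 0.743). MRC1, the mannose receptor CD206, was at 30.3, 14.0 and 6.03 FPKM in Jintang ovaries and at 2.80, 7.03 and 5.40 FPKM in Tibetan ovaries. Only Jintang 3, below Tibetan 2, broke the separation (limma log2 fold change 1.36, SE 0.55, adjusted p = 0.743). FOLR2, a folate receptor of resident macrophages, was at 110.6, 14.8 and 33.8 FPKM in Jintang ovaries against 5.31, 26.7 and 6.96 FPKM in Tibetan ovaries (limma log2 fold change 1.82, SE 0.77, adjusted p = 0.743). Here Jintang 2 lay below Tibetan 2. VSIG4, a complement receptor of resident macrophages, was at 9.83, 0.38 and 3.52 FPKM in Jintang ovaries and at 0.38, 2.70 and 0.81 FPKM in Tibetan ovaries, so that Jintang 2 and Tibetan 1 shared the lowest value. The sialoadhesin gene SIGLEC1 reached 12.5 FPKM in Jintang 1 and 0.50 to 0.95 FPKM elsewhere, a 13.2-fold lead over the next ovary. MARCO, a scavenger receptor of marginal zone and alveolar macrophages, was at most 0.43 FPKM in any ovary; neither gene reached the filter.

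Among integrins, the shared beta chain ITGB2 (CD18) exceeded its alpha partners ITGAM (CD11b) and ITGAX (CD11c). ITGB2 was at 40.6, 10.1 and 22.1 FPKM in Jintang ovaries, against 3.47, 15.6 and 7.84 FPKM in Tibetan ovaries (limma log2 fold change 1.34, SE 0.59, adjusted p = 0.743). ITGAM was at 14.6, 2.43 and 5.67 FPKM in Jintang ovaries, against 0.94, 2.63 and 2.40 FPKM in Tibetan ovaries, with Jintang 2 below Tibetan 2 (limma log2 fold change 1.30, SE 0.55, adjusted p = 0.743). The ratio of ITGAM to ITGB2 stayed between 0.241 and 0.359 in Jintang ovaries and between 0.168 and 0.306 in Tibetan ovaries. ITGAX, a marker of dendritic cells and of some macrophages, did not share this order. It was at 2.29, 1.35 and 0.66 FPKM in Jintang ovaries and at 0.21, 2.62 and 1.39 FPKM in Tibetan ovaries, highest in Tibetan 2, and its log2 fold change of 0.10 became -0.15 without Jintang 1 and -0.33 without Tibetan 1. CD86, a costimulatory ligand for T cells, was at 7.18, 1.13 and 1.82 FPKM in Jintang ovaries and at 0.42, 2.18 and 2.03 FPKM in Tibetan ovaries. Its log2 fold change of 0.61 was 0.04 without Jintang 1.

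The phagocyte oxidase genes went apart. NCF1 (p47phox), a cytosolic subunit, was at 7.07, 1.55 and 2.83 FPKM in Jintang ovaries and at 0.84, 1.94 and 1.77 FPKM in Tibetan ovaries, highest in Jintang 1 and lowest in Tibetan 1 like most members. The GTPase RAC2, which is not a member, had 23.8, 9.65 and 25.6 FPKM in Jintang ovaries against 6.59, 16.9 and 9.80 FPKM in Tibetan ovaries. Of 6 further oxidase genes 4 were measured and 2 tested, with 1 positive (RAC2) and 1 negative (RAC1, at a log2 fold change of -0.01). The catalytic oxidase subunits NOX4 and NOX1, which other cell types use, were under the filter. NOX4 was at 1.36, 1.11 and 0.76 FPKM in Jintang ovaries against 0.07, 0.62 and 0.39 FPKM in Tibetan ovaries, without overlap, and NOX1 was at most 0.34 FPKM in any ovary. With no filter on low values, 3.19% of 17411 genes had every Jintang value above. NCF4 (p40phox), another cytosolic subunit, was at 32.1, 11.6 and 3.86 FPKM in Jintang ovaries, and at 0.60, 3.34 and 243 FPKM in Tibetan ovaries. The value in Tibetan 3 was 7.56-fold above the next ovary, Jintang 1, and the ratio of NCF4 to NCF1 was 137 in Tibetan 3 and 0.714 to 7.51 elsewhere. Its log2 fold change (0.09, SE 1.67, limma adjusted p = 0.992) was 2.27 without Tibetan 3 and -1.36 without Tibetan 1. In the RefSeq gene order of assembly ARS1.2 the protein-coding neighbours of NCF4 are PVALB and CSF2RB, and these were at 2.57 and 4.77 FPKM in Tibetan 3, and their highest values were in other ovaries.

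The leukotriene genes were low. ALOX5AP, the protein that presents arachidonic acid to 5-lipoxygenase, was at 9.03, 4.18 and 2.51 FPKM in Jintang ovaries and at 1.74, 3.96 and 4.08 FPKM in Tibetan ovaries. The lipoxygenase ALOX5 itself ran from 0.63 to 1.32 FPKM in Jintang ovaries and from 0.32 to 1.24 FPKM in Tibetan ovaries and was not tested. Of 8 further leukotriene genes 4 were tested, with 1 positive and 3 negative fold changes and no unadjusted p under 0.05. LTA4H, which makes leukotriene B4, was at 21.2, 22.8 and 29.0 FPKM in Jintang ovaries against 26.6, 37.9 and 33.0 FPKM in Tibetan ovaries. LTB4R, a receptor of leukotriene B4, was at 0.38, 0.18 and 1.37 FPKM in Jintang ovaries against 4.16, 2.65 and 0.38 FPKM in Tibetan ovaries, with overlap (log2 fold change -0.92, limma adjusted p = 0.743).

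The secreted and vesicle proteins differed in their order of ovaries. SPP1, which encodes osteopontin, was at 342, 85.2 and 18.4 FPKM in Jintang ovaries, against 1.83, 8.14 and 30.3 FPKM in Tibetan ovaries. Jintang 1 and 2 were the highest, Tibetan 3 lay above Jintang 3, and the log2 fold change was 3.16 (SE 1.12, limma adjusted p = 0.743). S-LZ, the goat lysozyme gene, was at 33.8, 7.62 and 10.3 FPKM in Jintang ovaries and at 0.48, 10.5 and 0.75 FPKM in Tibetan ovaries. Tibetan 2 stood with the Jintang ovaries, and the other 2 Tibetan ovaries were below 1 FPKM (limma log2 fold change 2.28, SE 0.83, adjusted p = 0.743). Ruminant lysozyme genes form a family of similar copies, so reads may be shared between them and the level of S-LZ is uncertain. GPNMB, a glycoprotein of lysosome-rich macrophages and of pigment cells, had another order, at 54.0, 6.29 and 107 FPKM in Jintang ovaries and 13.1, 109.9 and 6.57 FPKM in Tibetan ovaries. It was nearly equal in Jintang 3 and Tibetan 2 and in Jintang 2 and Tibetan 3, and its log2 fold change (0.62, SE 1.18, limma adjusted p = 0.905) became -0.19 without Jintang 3 and -0.17 without Tibetan 3.

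The calgranulins, calcium-binding proteins abundant in neutrophils and monocytes, were highest in Tibetan 3. S100A9 was at 4.81, 5.55 and 3.34 FPKM in Jintang ovaries, was listed at 0 in Tibetan 1, and was at 1.52 and 51.6 FPKM in Tibetan 2 and 3. S100A8 was at 8.38, 0.88 and 1.94 FPKM in Jintang ovaries, was listed at 0 in Tibetan 1, and was at 2.20 and 23.2 FPKM in Tibetan 2 and 3. Both therefore had their extremes within the Tibetan breed, and their fold changes (0.11 for S100A9 and -0.19 for S100A8) changed sign with single libraries left out, reaching 1.79 and 1.06 without Tibetan 3. With a pseudocount of 0.1 in place of 1 the log2 fold change was 1.17 for S100A9 and 0.55 for S100A8. Of 14 neutrophil and granulocyte genes 8 were measured and 3 tested, with 1 positive and 2 negative fold changes. The chemokine receptors CXCR1 and CXCR2 were at 0.09 and 0.46 FPKM in Tibetan 3, and at most 0.22 and 0.53 FPKM in any ovary. Lactoferrin (LTF) had its highest value in Tibetan 3, at 0.40 FPKM, and its lowest in Jintang 2, at 0.06 FPKM. AZU1 was listed at 0 in Tibetan 3 and was highest in Tibetan 1, at 1.31 FPKM. All of these were under the filter. ELANE, neutrophil elastase, ran from 2.99 to 9.60 FPKM in Jintang ovaries and from 7.89 to 23.1 FPKM in Tibetan ovaries, with its highest value in Tibetan 1, where both calgranulins were listed at 0. PADI4 was at most 1.70 FPKM and PGLYRP1 at most 0.61 FPKM in any ovary. The gelatinase MMP9, made by many cell types, was at 20.7, 6.97 and 18.0 FPKM in Jintang ovaries against 3.19, 4.90 and 0.45 FPKM in Tibetan ovaries, without overlap (log2 fold change 2.17, limma adjusted p = 0.743). It was the only 1 of the 3 tested without overlap, where 3.2% of all genes tested had every Jintang value above. The summed level of the granulosa list was highest in Tibetan 3 (1342 FPKM, of which the inhibin subunit INHA gave 1194, against at most 473 FPKM in the other ovaries), and its part in the values of NCF4 and the calgranulins was not tested.

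To see how the members differ among themselves, each log2 value was set against the mean of the 30 tested members in the same goat; these relative levels sum to 0 and carry no test. Relative to the set, TREM2 was at 0.55, 0.48 and 1.40 in Jintang ovaries against -1.13, -0.68 and -2.77 in Tibetan ovaries, and MSR1 at 0.69, 0.63 and 0.12 in Jintang ovaries against -0.84, -0.05 and -0.68 in Tibetan ovaries. These 2 members kept all Jintang ovaries above all Tibetan ovaries on this scale, as did 0.0842% of all genes tested. The subtracted mean was itself higher on average in Jintang ovaries, and both members help to form it. The centring thus leaves few genes above, and this share does not measure how unusual the 2 members are. Both were without overlap before the centring too. FCER1G, ITGAX and CD86 had all Jintang ovaries below all Tibetan ovaries, as did 25.4% of all genes tested, so that a gene whose breed means differ little falls into this class by the centring. FCER1G was at 1.39, 1.21 and 1.19 in Jintang ovaries and at 2.35, 2.23 and 1.40 in Tibetan ovaries. AIF1 kept the steadiest place in the set, with a range of 0.67 between the 6 ovaries, followed by ITGAM at 0.68 and CD86 at 0.71. The widest ranges were those of NCF4 (6.2), S100A9 (5.14), TREM2 (4.17), SPP1 (3.81), S100A8 (3.80) and GPNMB (3.69). CD68 ranged by 2.59, from 0.33 in Jintang 2 to 2.91 in Jintang 1.

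**Figure D4:**
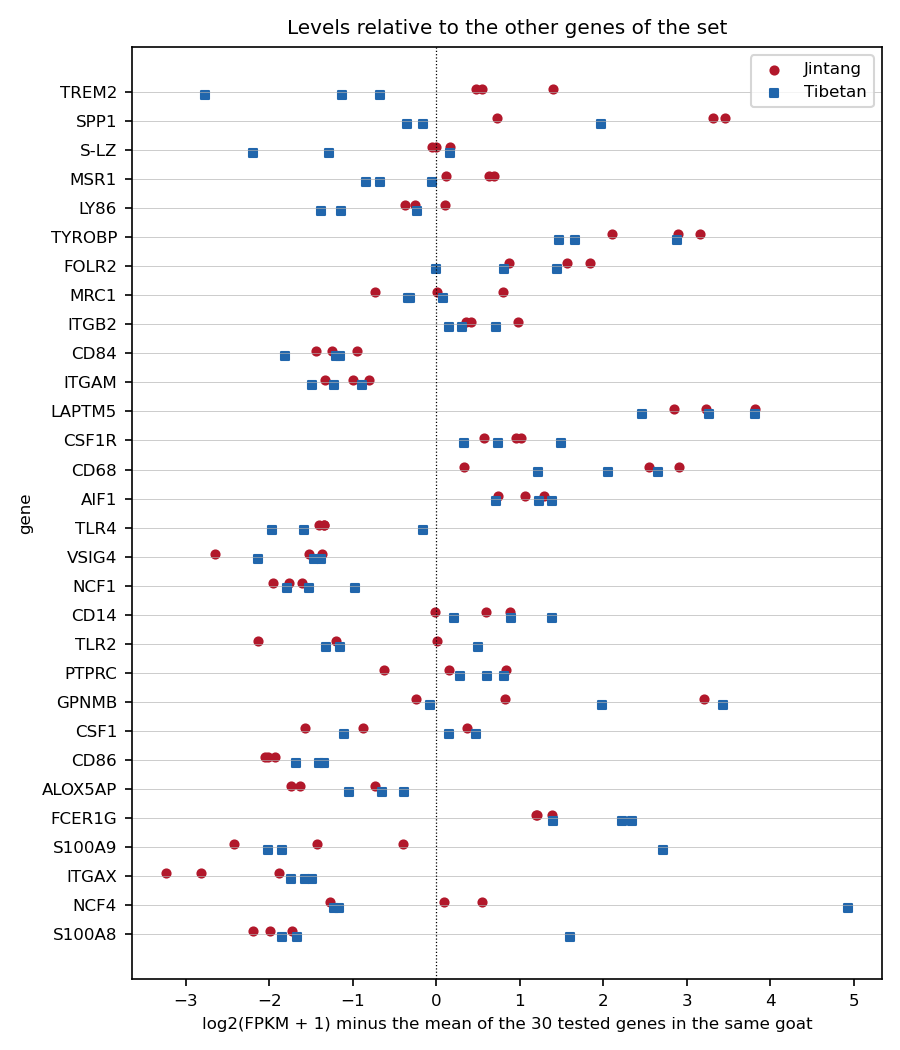
Level of each tested gene relative to the mean of the 30 tested genes in the same goat (log2 units), with Jintang goats as red circles and Tibetan goats as blue squares, sorted by the difference of the breed means. TREM2 and MSR1 have all red points to the right of all blue points, and the blue point of NCF4 at 4.93 is Tibetan 3.

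Further macrophage markers outside the set, a list also chosen with earlier results of these data known, had a similar profile over the goats. Of 35 listed 27 were measured and 23 tested, with 20 positive and 3 negative fold changes, a median of 1.07 and 17 highest in Jintang 1. At an unadjusted p under 0.05 there were 6 of the 23, all higher in Jintang ovaries, as were 2.82% of all genes tested, and none was called. Their mean was 5.21, 3.70 and 4.16 on the log2(FPKM + 1) scale in Jintang 1, 2 and 3, against 3.01, 3.96 and 3.39 in Tibetan 1, 2 and 3. The costimulatory receptor CD40 was at 5.42, 5.16 and 4.32 FPKM in Jintang ovaries against 0.75, 2.56 and 0.79 FPKM in Tibetan ovaries, and the actin-binding protein CORO1A of leukocytes had 53.7, 28.1 and 43.9 FPKM in Jintang ovaries against 9.70, 20.9 and 16.9 FPKM in Tibetan ovaries. The cytokine IL1B was at 4.67, 1.88 and 1.58 FPKM in Jintang ovaries and at 0.11, 0.66 and 0.95 FPKM in Tibetan ovaries. All 3 genes, named because they had the smallest p of the list, had no overlap between the breeds. They were the only 3 of the 23 tested without overlap, where 3.2% of all genes tested had every Jintang value above. Lipid-handling genes of macrophages gave 9 positive and 3 negative fold changes among 12 tested (median 0.60). The tetraspanin CD9 was at 182, 120.3 and 116 FPKM in Jintang ovaries and at 61.8, 68.7 and 85.3 FPKM in Tibetan ovaries, and the lysosomal lipase LIPA had 152, 48.5 and 47.4 FPKM in Jintang ovaries against 7.69, 50.9 and 18.9 FPKM in Tibetan ovaries. The scavenger receptor CD36 reached 89.7 FPKM in Jintang 1 and no more than 9.68 FPKM in another ovary. Of 13 macrophage transcription factors 9 were tested, 6 positive and 3 negative (median 0.35), with no unadjusted p under 0.05. IRF8, which directs monocyte development, was at 17.5, 7.32 and 8.24 FPKM in Jintang ovaries against 2.16, 10.9 and 3.88 FPKM in Tibetan ovaries. IRF5 was at 14.4, 3.41 and 4.07 FPKM in Jintang ovaries against 0.81, 2.54 and 4.02 FPKM in Tibetan ovaries, and BATF3 had 15.1, 47.3 and 2.14 FPKM in Jintang ovaries against 3.08, 3.22 and 3.71 FPKM in Tibetan ovaries. The neonatal Fc receptor FCGRT, the one Fc receptor of the list that was measured, stood at 411 FPKM in Jintang 1, and its other values ran from 93.1 to 191 FPKM.

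Markers of other cells were examined because whole ovaries were sampled. Lymphocyte genes had another order: their mean was 2.45, 1.90 and 3.28 on the log2(FPKM + 1) scale in Jintang 1, 2 and 3, against 1.83, 3.01 and 2.16 in Tibetan 1, 2 and 3, highest in Jintang 3. Of 11 tested, 7 were positive and 4 negative (median 0.15), and 1 was highest in Jintang 1. Measured markers of blood cells were low. The summed level of 4 measured erythrocyte and platelet genes was 2.67 to 4.31 FPKM in Jintang ovaries and 3.16 to 5.67 FPKM in Tibetan ovaries, with the erythroid enzyme ALAS2 listed at 0 in all ovaries but Tibetan 1 (0.08 FPKM). Of the mast cell list 4 genes were measured; CPA3 was at 1.30 FPKM in Jintang 1 and no more than 0.66 FPKM in another ovary, and HDC and MS4A2 were at most 0.26 FPKM. KIT, which other ovarian cells also express, was between 10.4 and 31.1 FPKM in Jintang ovaries and between 3.06 and 6.77 FPKM in Tibetan ovaries.

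Endothelial, stromal and luteal markers were also mostly positive between the breeds. Endothelial genes were positive in 10 of 11 (median 0.60, summed level 199 to 429 FPKM in Jintang ovaries and 173 to 286 FPKM in Tibetan ovaries), with 5 highest in Jintang 2 and 4 in Jintang 1. Fibroblast and stroma genes were positive in 9 of 9 (median 1.11), with 5 highest in Jintang 1, and summed to between 3998 and 11370 FPKM in Jintang ovaries and between 2247 and 4341 FPKM in Tibetan ovaries. Luteal and steroidogenic genes were positive in 9 of 9 (median 1.83), with 6 highest in Jintang 2, where they summed to 24410 FPKM. Their sum in the other ovaries was 6560 and 588 FPKM in Jintang 1 and 3, against 405, 649 and 3221 FPKM in Tibetan 1, 2 and 3. Granulosa genes were positive in 5 of 10 (median 0.10). Jintang 2, with the highest luteal sum, held the lowest value of 2 of the 30 tested members, CD68 among them. Jintang 1, with the next highest luteal sum, had the highest myeloid sum. TIMP1 gave 5304 of the 6560 FPKM of that luteal sum, and 1298 of the 3221 FPKM in Tibetan 3. Without TIMP1 the luteal sum of Jintang 1 was below that of Tibetan 3. The part of these cell types in the values of the myeloid genes was not tested.

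**Figure D5:**
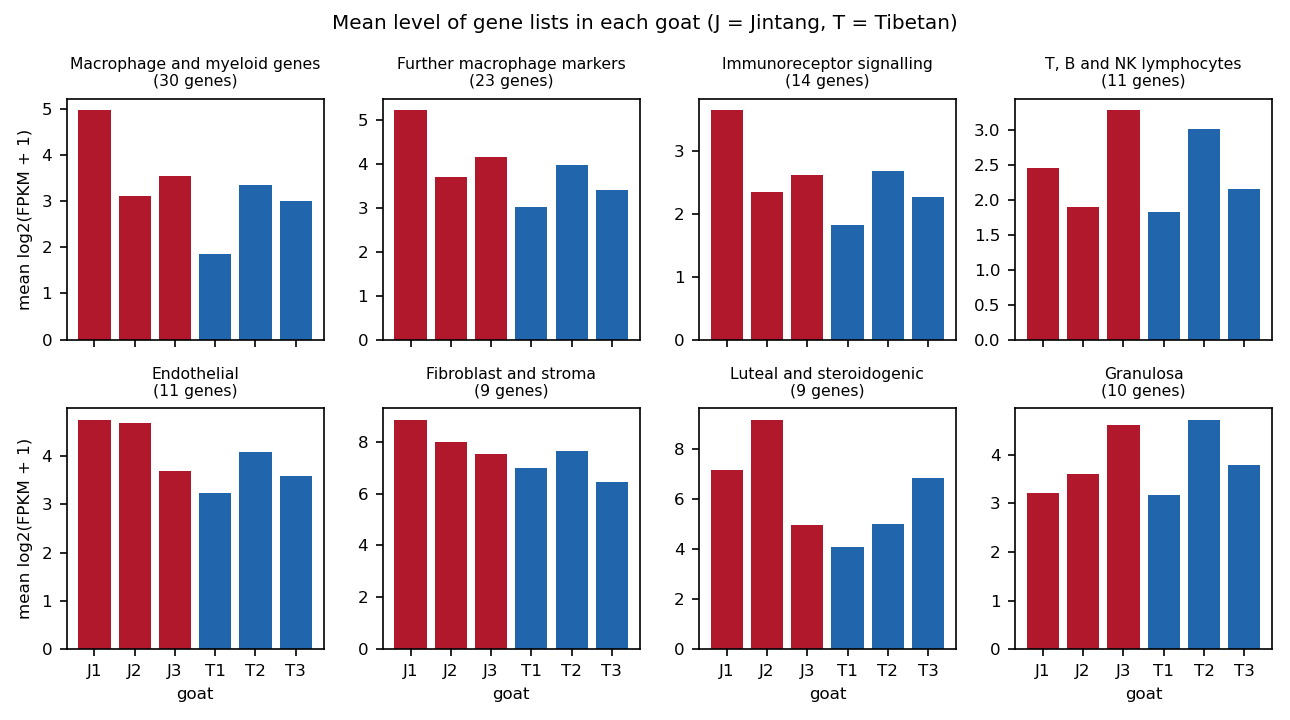
Mean log2(FPKM + 1) of the tested genes of 8 lists in each goat, Jintang (J, red) left of Tibetan (T, blue); each bar is 1 goat and each panel has its own axis from 0. The myeloid set, the further macrophage markers and the immunoreceptor signalling genes are highest in Jintang 1 and lowest in Tibetan 1, lymphocyte genes are highest in Jintang 3 and luteal genes in Jintang 2.

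Jintang 3 and Tibetan 2 were close to each other in many members. In 23 of the 30 tested members their values lay within 1.5-fold, as they did in 79.4% of all genes tested, so these members were about as close in this pair as genes in general. Jintang 3 was the higher of the pair in 20 of the 30, and in 49.1% of all genes tested. Jintang 2 lay below Tibetan 2 in 20 of the 30 members and in 56.3% of all genes, and above Tibetan 1 in 27 members and in 47.0% of all genes. Without Jintang 2, all Jintang values exceeded all Tibetan values in 16 of the 30 members, where they did in 6.07% of all genes tested. Without Tibetan 2 they did so in 15 members and in 8.11% of all genes, and over all goats in 3 members and in 3.2% of all genes. With 5 goats in place of 6, fewer values have to be in order, and the share over all genes is larger.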

How the data were processed

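Per the labels' protocols, TRIzol was used to extract ovarian RNA of 6 goats and an NEBNext kit to make the libraries. The authors deposited 1 table of FPKM per goat. RSEM 1.2.0, TopHat2 2.0.10 and Bowtie2 2.1.0 appear in the submitters' processing notes, which do not say what each did. Coordinates and sequences are left out, with the genome build not given in the sources used here. FPKM is relative within a library, and reads of near-identical genes can be shared. The precision is limited by 3 goats per breed. A p-value sets the breed difference against the spread between goats, with the variance of each gene moderated by limma over all genes tested. A whole-series table with the same values was not used.

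Symbols came from a RefSeq table of assembly ARS1.2, in which 16459 of 17504 GeneIDs matched; S-LZ is lysozyme. The breed difference was fitted to log2(FPKM + 1) by lmFit and trended eBayes of limma 3.58.1 (R 4.3.3), 2-sided and without further terms, with Benjamini-Hochberg adjustment over 13067 genes and a threshold of 0.05. The procedure was tested on simulated data. Tables and figures used Python 3.11.15, pandas 2.3.3, numpy 2.4.6 and matplotlib 3.10.9.

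The members, the other gene lists and the rule for naming genes were chosen with earlier results of these data known. All members are named; values in every library are given for those with the smallest p, the highest means or a fold change against the majority, and for defining markers, and genes of the further lists were named mainly from the 3 with the smallest p of a list, with the measured genes of the colony-stimulating factor, Fc receptor, oxidase and neutrophil lists. A planned count of promoter motifs was not analysed here, and 1 further oxidase gene, left out of that list's counts, is not reported here. As alternatives the pseudocount was 0.1 or 0.01, the filter was left out or set to 5 FPKM, libraries were scaled by median ratio, sum or quantiles, the trend was dropped, variances were robust, the replicate number was a block, and each goat was left out.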

Additional observations from a re-analysis of the deposited data

How the results depend on the processing

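Of the 30 tested members 24 kept the sign of their fold change under each of the 16 alternatives in which they were tested, and no member was called under any of them. With each goat left out in turn, the number of genes called over all genes ran from 0 to 13 (13 without Jintang 3), the members with an unadjusted p under 0.05 from 1 (without Jintang 1) to 17 (without Jintang 2), the members without overlap, all higher in Jintang ovaries, from 3 to 16 (4.65% to 9.93% of all genes had all Jintang values above), and the median of the members from 0.51 to 1.53. Over the same fits 2.57% to 14.3% of all genes had an unadjusted p under 0.05, in either direction. Without Jintang 3 no member was among the 13 genes. The unadjusted count was 4 of 35 members with no filter on low values, where 5.73% of 17411 genes were at that level in either direction. All 19 members that passed a filter of 5 FPKM were positive, as were 39.4% of all genes that passed it. With median-ratio scaling 5 members had all Jintang values above, as did 4.58% of all genes. The fold changes that changed sign with a goat left out ran from -0.19 to 0.84 for FCER1G, -0.33 to 0.46 for ITGAX, -1.36 to 2.27 for NCF4, -0.19 to 1.76 for GPNMB, -1.24 to 1.06 for S100A8 and -1.07 to 1.79 for S100A9. With pseudocounts of 0.1 and 0.01 that of S100A8 was 0.55 and 1.61 and that of S100A9 was 1.17 and 2.28; the value listed at 0 in Tibetan 1 weighs more at a small pseudocount. The cause of the other changes was not tested. Goats with the same replicate number are different animals. Their deviations from the breed means correlated at -0.018, -0.211 and -0.470 for numbers 1, 2 and 3 over the genes tested. These values give no sign that the number pairs the goats, but with 3 goats per breed they cannot exclude it. With the replicate block 4 members had an unadjusted p under 0.05, as did 4.45% of all genes in either direction, and 0 genes were called. Depth in fragments is unknown, so values under 1 FPKM carry no stated precision.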

Other observations

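Some genes of the further lists stood apart in single ovaries and are named here after their values were seen. PLIN2, which coats lipid droplets, was at 1663, 103 and 48.4 FPKM in Jintang 1, 2 and 3, against 46.8, 49.5 and 50.5 FPKM in Tibetan 1, 2 and 3. Jintang 1, in which most myeloid genes were highest, stood 16.2-fold above the next ovary. CD83, a surface protein of mature dendritic cells and activated lymphocytes, was at 8.15, 42.1 and 1.61 FPKM in Jintang ovaries and at 0.26, 2.46 and 1.30 FPKM in Tibetan ovaries.

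Some listed genes that did not reach the filter were also uneven between goats. SLC11A1, a metal transporter of phagosomes, was at 11.4, 18.9 and 0.79 FPKM in Jintang ovaries and at 0.07, 0.20 and 0.54 FPKM in Tibetan ovaries. TREM1, a receptor that like TREM2 signals through TYROBP, was at 4.43, 2.80 and 0.84 FPKM in Jintang ovaries against 0.26, 0.25 and 0.68 FPKM in Tibetan ovaries. CYSLTR2, a receptor for cysteinyl leukotrienes, was at 3.14, 2.77 and 0.90 FPKM in Jintang ovaries and was listed at 0 in all 3 Tibetan ovaries. None of these 3 genes was tested.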
